A study of Mus musculus with 49 samples.

Results

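Isl1, Pax6, Nkx2-2, Rfx6, Etv1, Mnx1 and Fev encode transcription factors of the enteroendocrine lineage or of related neural and pancreatic cells. They were taken as a list of 7 gene symbols, a rule that sets no threshold on a measured value, and the list was drawn up with earlier results of these data known. All 7 were found among the 24062 genes of the count table, and all 7 passed the filter on low counts that left 14837 genes for testing. Enteroendocrine cells are the scattered hormone-producing cells of the gut lining. Their precursors switch on the basic helix-loop-helix factor Neurog3, and later factors settle which hormone a cell makes. Isl1 (a LIM-homeodomain factor) and Pax6 (a paired-homeodomain factor) act in several hormone lineages, Nkx2-2 (a homeodomain factor) and Rfx6 (a winged-helix factor) act below Neurog3 in gut and pancreas, and Fev, also called Pet1, is an ETS-family factor of serotonin-producing cells. Etv1 is a second ETS-family factor, and Mnx1 is a homeodomain factor known from motor neurons and pancreatic beta cells.

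RNA sequencing of crypt epithelium from the proximal small intestine of adult mice (strain B6;129 mixed) gave 25 libraries in 12 groups. The other 24 of 49 samples were not analysed here. The study compared stem cells, progenitors and secretory cells, and what becomes of them after stem cells are lost or the gut is irradiated. Bmi1-GFP cells (3 libraries) were sorted from Bmi-1GFP/+ reporter mice, and a single library came from such mice 36 h after 10 Gy of whole-body radiation. Lgr5-GFP-Cre stem cells (3 libraries) came from Lgr5EGFP-IRES-CRE-ERT2 mice and Lgr5-GFP-DTR stem cells (2 libraries) from Lgr5EGFP-DTR mice, each sorted on GFP. Wild-type mice gave the enteroendocrine sort (CD24-high, UEA-lectin-negative) and the Paneth sort (CD24-high, UEA-high), with 2 libraries each. Cells sorted on CD274 and CD69 gave a wild-type control group and a group from mice, also labelled wild type, given diphtheria toxin (DT) at 50 µg/kg on alternate days and taken 1 day after the last dose, with 2 libraries each. The same CD274 and CD69 sort, from wild-type mice 115 h after the first dose of the gamma-secretase inhibitor DBZ, gave the 2 goblet libraries. Enterocyte progenitors (2 libraries) were unsorted crypts of Atoh1 F/F; Villin-CRE mice 3 weeks after tamoxifen (1 mg on 5 days), in which the intestinal epithelium loses Atoh1, the factor of all secretory lineages. Secretory progenitors were unsorted crypts of 2 kinds: Atoh1 F/F mice without Cre given DBZ (48 mg/kg at 0 and 12 h, taken at 38 h; 2 libraries), and Rbpj F/F; Villin-CRE mice on day 3 of tamoxifen (2 mg on 2 days; 2 libraries). Both treatments block Notch signalling, which holds back the secretory fate. Villin-CRE acts throughout the intestinal epithelium and not in endocrine cells alone.

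Levels are given as CPM, which set each gene's counts against its library's depth, scaled by TMM, a method that corrects for differences in library makeup. They are not divided by transcript length, so a level is compared between libraries and levels of different genes are not ranked. Library totals ran from 11179085 to 27371108 counts. Atoh1 stood at 1.49 and 1.74 CPM in the enterocyte progenitor libraries and at 18.2 CPM or more in every other library. Rbpj stood at 21.0 and 28.4 CPM in the libraries labelled Rbpj-deleted, inside the range of the other libraries (11.2 to 43.6 CPM). The part of the gene that was deleted is not given in the sources used here, so these counts do not check that label. Secretory granule genes (8 listed) summed to 3448 to 6856 CPM in enteroendocrine libraries and to 2629 to 6435 CPM in Bmi1-GFP libraries, against 174 to 206 CPM in Lgr5-GFP-Cre libraries. The enteroendocrine sort also held Paneth markers at 46454 to 54050 CPM, goblet markers at 13794 to 26187 CPM and tuft markers at 856 and 4310 CPM, all as sums over the list. In the goblet libraries the enterocyte markers summed to 106548 to 116455 CPM. In such bulk libraries, fewer cells of a type and less RNA per cell cannot be told apart.

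The 7 genes lie on 6 chromosomes of the GRCm38.p6 build: Isl1 at chr13:116298270-116309688, Pax6 at chr2:105668896-105698410, Nkx2-2 at chr2:147176485-147195434, Rfx6 at chr10:51677760-51730429, Etv1 at chr12:38780082-38870483, Mnx1 at chr5:29473823-29478470 and Fev at chr1:74881501-74885473. RefSeq promoter windows of that build, from 250 bases before to 50 bases after a start site, were matched for all 7 genes and made 9 windows. The 250 upstream bases are shown for Isl1, Etv1 and Mnx1, since these 3 genes followed 3 different orders across the groups. E-boxes, the CANNTG motif that Neurog3, Neurod1 and Atoh1 can bind as helix-loop-helix proteins, are in capitals. Isl1 (minus strand, chr13:116309689-116309938) has 1 such match, this Etv1 window (plus strand, chr12:38779832-38780081) has 0, and Mnx1 (minus strand, chr5:29478471-29478720) has 2. The other Etv1 window (plus strand, upstream bases chr12:38783461-38783710, not shown) has 3 such matches, all upstream, so Etv1 is not a gene without E-boxes.
Isl1: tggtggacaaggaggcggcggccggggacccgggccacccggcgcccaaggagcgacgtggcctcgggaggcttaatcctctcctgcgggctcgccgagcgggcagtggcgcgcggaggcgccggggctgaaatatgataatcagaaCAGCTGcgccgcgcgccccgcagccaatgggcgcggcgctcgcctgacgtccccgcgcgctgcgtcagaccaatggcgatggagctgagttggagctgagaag
Etv1: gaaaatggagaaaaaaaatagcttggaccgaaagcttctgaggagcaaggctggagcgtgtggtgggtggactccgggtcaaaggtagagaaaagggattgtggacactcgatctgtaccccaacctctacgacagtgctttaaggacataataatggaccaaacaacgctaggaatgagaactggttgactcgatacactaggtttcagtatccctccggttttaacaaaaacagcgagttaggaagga
Mnx1: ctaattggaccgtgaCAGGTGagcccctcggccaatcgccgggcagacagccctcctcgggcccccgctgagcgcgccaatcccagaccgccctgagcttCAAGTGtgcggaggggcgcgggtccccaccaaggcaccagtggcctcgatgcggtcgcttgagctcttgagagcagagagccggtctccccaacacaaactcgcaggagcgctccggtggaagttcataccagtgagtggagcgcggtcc
Counted over whole windows and both strands, CANNTG was in 6 of the 9 windows, against 72.3% of 32851 RefSeq windows of the same length. The NeuroD-type E-box CAGATG, a form of CANNTG, was in 2 windows (Nkx2-2 and the other Etv1 window), against 17.2%. CAAGTG, a motif of Nkx2 factors that also falls under CANNTG, was in 2 windows (Nkx2-2 and Mnx1), against 13.6%. The homeodomain motif TAATTA was in 2 windows (Rfx6 and Fev), against 5.29%, and the RFX-type motif GTTGCC in 2 (Pax6 and Rfx6), against 12.5%. TATAAA was in 1 window (the other one of Etv1), against 13.6%, and the ETS motif CCGGAAG was in 0, against 8.86%. A match is a description of these letters and not a bound site.

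Across the groups the 7 genes followed 3 orders. Isl1, Pax6, Nkx2-2, Rfx6 and Fev had their highest mean in enteroendocrine cells and their second highest in Bmi1-GFP cells. Etv1 had its highest mean in Bmi1-GFP cells. Mnx1 had its highest mean in Lgr5-GFP-Cre stem cells and its lowest in goblet cells.

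**Figure D1:**
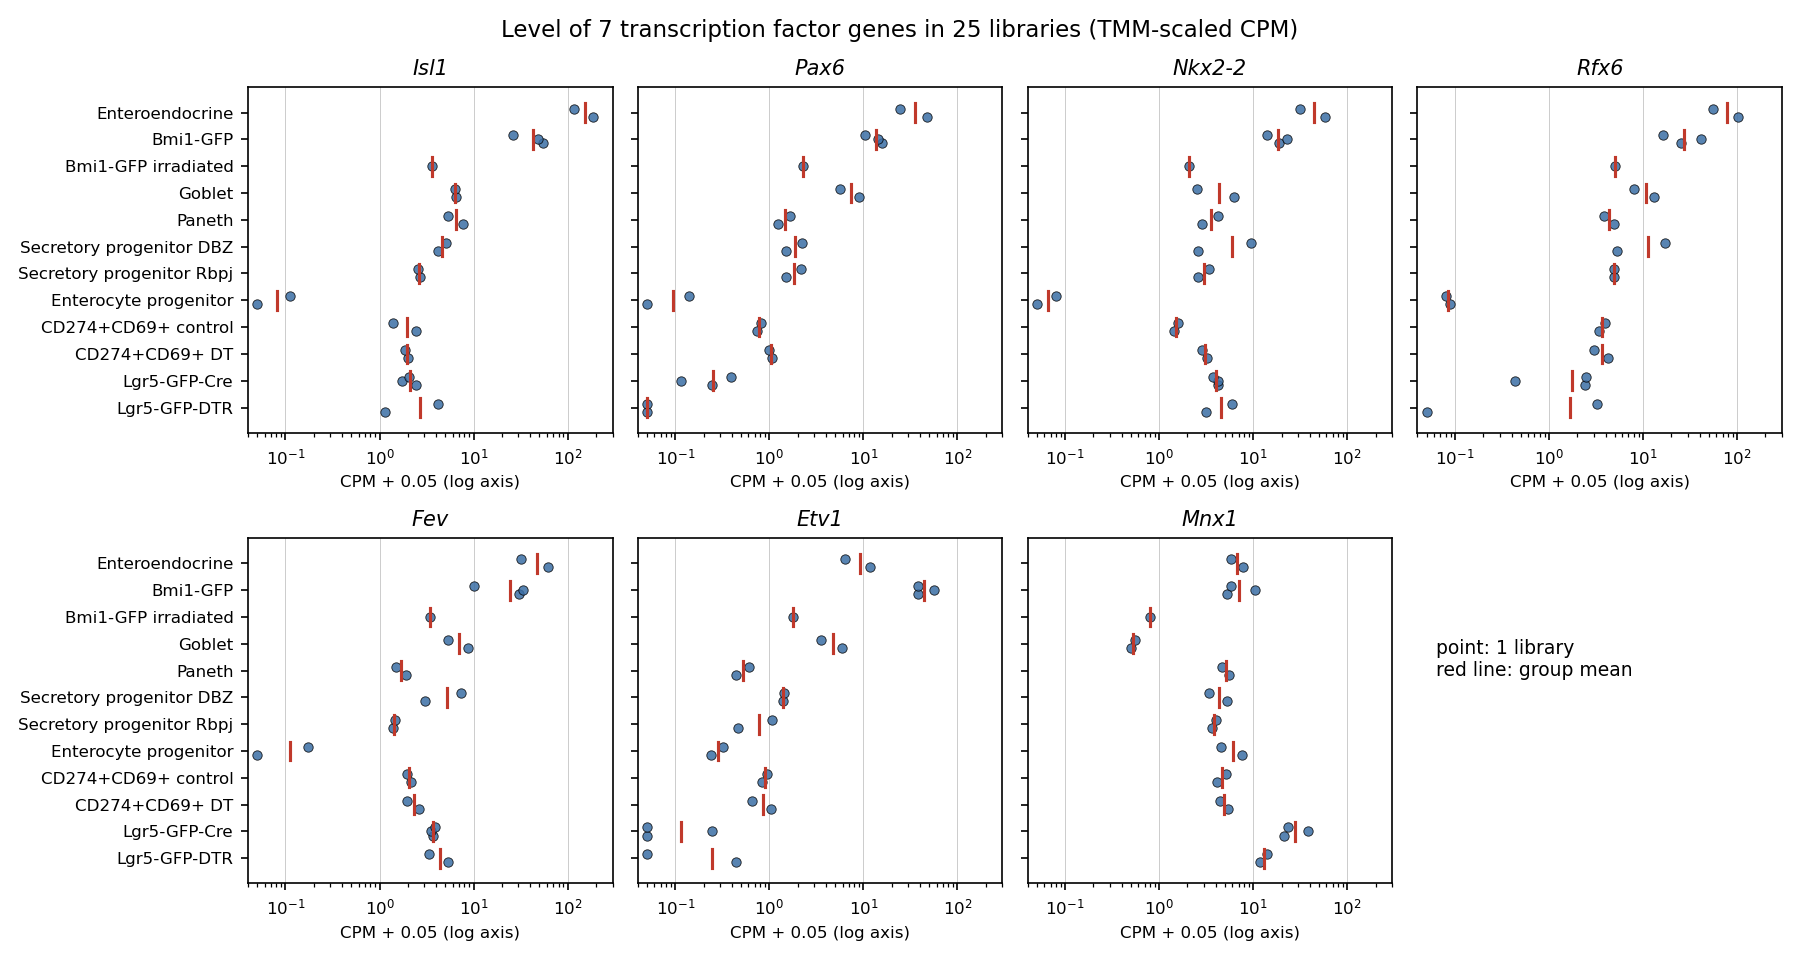
TMM-scaled CPM of the 7 genes in each of the 25 libraries, on a log x axis after adding 0.05 CPM, with 1 panel a gene and the 12 groups along the y axis. Points are libraries and the red line is the group mean; Etv1 is highest in the 3 Bmi1-GFP libraries (37.7 to 56.5 CPM), and Mnx1 in the 3 Lgr5-GFP-Cre libraries (21.4 to 38.0 CPM).

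Isl1 stood at 187 and 116 CPM in the enteroendocrine libraries and at 54.1, 48.9 and 26.5 CPM in the Bmi1-GFP libraries. The Paneth libraries held 7.61 and 5.25 CPM, the goblet libraries 6.38 and 6.25 CPM, and the DBZ crypts 4.15 and 5.05 CPM. Lgr5-GFP-Cre cells held 2.41, 1.69 and 2.03 CPM. The enteroendocrine and Bmi1-GFP ranges did not overlap each other or any other group, whereas Paneth and goblet ranges overlapped. The Lgr5-GFP-DTR libraries (1.09 and 4.14 CPM), crypts labelled Rbpj-deleted (2.66 and 2.52 CPM), CD274+CD69+ control cells (2.42 and 1.35 CPM) and those after DT (1.97 and 1.83 CPM) lay in the same low band as Lgr5-GFP-Cre cells. Enterocyte progenitors held 0 and 0.0610 CPM, which is 2 counts in all.

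Pax6 stood at 46.9 and 24.5 CPM in enteroendocrine libraries, at 15.9, 14.3 and 10.2 CPM in Bmi1-GFP libraries and at 8.93 and 5.57 CPM in goblet libraries. Each of these 3 groups lay clear of the next. The DBZ crypts (1.47 and 2.18 CPM), crypts labelled Rbpj-deleted (1.44 and 2.14 CPM) and Paneth cells (1.19 and 1.62 CPM) overlapped. CD274+CD69+ cells were lower still, at 0.692 and 0.766 CPM in the control group and 1.02 and 0.939 CPM after DT. The Lgr5-GFP-Cre libraries held 0.195, 0.0650 and 0.338 CPM (12 counts in all), and enterocyte progenitors 0 and 0.0915 CPM (3 counts in all), 2 ranges that overlapped. Both Lgr5-GFP-DTR libraries had 0 counts. Pax6 overlaps Pax6os1 and the end of Elp4 on the genome, and the strand setting of the counting is not given in the sources used here. Pax6os1 had a mean of 3.37 CPM in Bmi1-GFP and 1.94 CPM in enteroendocrine libraries, and Elp4 had means of 24.8 CPM in Lgr5-GFP-Cre and 20.3 CPM in Bmi1-GFP cells.

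Nkx2-2 stood at 58.0 and 31.4 CPM in enteroendocrine libraries and at 18.7, 22.8 and 13.8 CPM in Bmi1-GFP libraries, with no overlap between these groups or with the rest. Below them the order was not resolved. DBZ crypts (2.52 and 9.38 CPM), Lgr5-GFP-DTR (3.06 and 5.95 CPM), goblet (6.20 and 2.45 CPM), Lgr5-GFP-Cre (4.17, 4.16 and 3.67 CPM), Paneth (2.77 and 4.19 CPM), DT-treated CD274+CD69+ (3.15 and 2.82 CPM) and Rbpj-labelled (2.54 and 3.33 CPM) libraries each overlapped the next in order. The CD274+CD69+ control libraries lay below these, at 1.38 and 1.53 CPM, and enterocyte progenitors held 1 count in all. Nkx2-2os and 6430503K07Rik overlap Nkx2-2. Nkx2-2os was listed at 0 in every library, and 6430503K07Rik had its highest mean in enteroendocrine libraries (0.587 CPM, 25 counts in all).

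Rfx6 stood at 102 and 54.8 CPM in enteroendocrine libraries and at 24.99, 40.8 and 16.2 CPM in Bmi1-GFP libraries. The DBZ crypts differed from each other, at 5.26 and 17.3 CPM, and the upper library reached into the Bmi1-GFP range. Goblet libraries held 13.1 and 8.02 CPM. The remaining groups ran from 4.89 and 4.91 CPM (Rbpj-labelled crypts) through 4.85 and 3.81 CPM (Paneth), 3.31 and 3.92 CPM (CD274+CD69+ control) and 4.21 and 2.96 CPM (DT) to 2.35, 0.390 and 2.41 CPM in Lgr5-GFP-Cre and 0 and 3.23 CPM in Lgr5-GFP-DTR cells. Enterocyte progenitors held 1 count in each library.

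Fev stood at 61.1 and 32.1 CPM in enteroendocrine libraries and at 30.6, 33.1 and 10.0 CPM in Bmi1-GFP libraries, and these ranges overlapped. Both lay above the goblet libraries (8.57 and 5.24 CPM). The DBZ crypts (3.01 and 7.23 CPM), Lgr5-GFP-DTR (5.33 and 3.33 CPM) and Lgr5-GFP-Cre cells (3.65, 3.51 and 3.84 CPM) overlapped in order below them. Lower levels were found in CD274+CD69+ control (2.13 and 1.89 CPM), DT-treated (2.60 and 1.93 CPM) and Paneth cells (1.88 and 1.44 CPM) and in Rbpj-labelled crypts (1.33 and 1.41 CPM). Enterocyte progenitors held 0 and 0.122 CPM, or 4 counts in all.

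Etv1 stood at 37.7, 56.5 and 37.9 CPM in the Bmi1-GFP libraries, at 11.8 and 6.39 CPM in enteroendocrine libraries and at 5.83 and 3.46 CPM in goblet libraries. None of these 3 groups overlapped another. DBZ crypts held 1.34 and 1.37 CPM, and the CD274+CD69+ control (0.791 and 0.901 CPM), DT (0.985 and 0.611 CPM), Rbpj-labelled (0.417 and 1.03 CPM) and Paneth (0.396 and 0.562 CPM) libraries lay below. Enterocyte progenitors held 0.191 and 0.274 CPM, so Etv1 was detected there in both libraries. The Lgr5-GFP-Cre libraries held 3 counts in all, from 1 library, and the Lgr5-GFP-DTR libraries 4 counts, again from 1 library.

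The 3 Lgr5-GFP-Cre libraries held Mnx1 at 21.4, 38.0 and 23.6 CPM, and both Lgr5-GFP-DTR libraries held it, at 11.8 and 14.1 CPM. Both stem cell groups lay above every other library. Bmi1-GFP (5.17, 10.3 and 5.80 CPM), enteroendocrine (7.75 and 5.69 CPM), enterocyte progenitor (7.46 and 4.54 CPM), Paneth (5.44 and 4.62 CPM), DT (5.28 and 4.42 CPM), CD274+CD69+ control (4.10 and 5.05 CPM), DBZ (5.23 and 3.31 CPM) and Rbpj-labelled libraries (3.57 and 3.97 CPM) formed an overlapping middle band. Goblet libraries were lowest, at 0.456 and 0.507 CPM, with 5 and 6 counts.

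Genes were called when edgeR's quasi-likelihood test over 24 libraries in 11 groups gave a Benjamini-Hochberg adjusted p under 0.05 over all 14837 genes. Both endocrine-rich groups were first compared with Lgr5-GFP-Cre stem cells, which these 2 comparisons share as their control. In Bmi1-GFP cells 6 of the 7 genes were called higher than in stem cells and Mnx1 lower, where 27.9% of all genes were called higher and 22.5% lower. Isl1 rose by 4.38 on the log2 scale (SE 0.40; adjusted p = 7.6e-07), Pax6 by 5.91 (SE 0.52; adjusted p = 7.6e-07), Rfx6 by 3.94 (SE 0.70; adjusted p = 0.000195), Fev by 2.72 (SE 0.46; adjusted p = 0.000126) and Nkx2-2 by 2.18 (SE 0.43; adjusted p = 0.000509) in edgeR's test. Nkx2-2 thus had the smallest rise of the 5 genes with a fitted fold, and it also started from 3.67 to 4.17 CPM in stem cells. For Etv1 the 2634 counts against 3 gave a ratio of depth-scaled counts of 798 (95% counting interval 273 to 3874), with an adjusted p of 1.57e-07 in edgeR's test. Mnx1 fell by 1.97 (SE 0.31; adjusted p = 7.2e-05 in edgeR's test).

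In the enteroendocrine sort, 6 genes were again called higher than in Lgr5-GFP-Cre cells and Mnx1 lower, where 25.5% of all genes were called higher and 20.4% lower. Isl1 was higher by 6.27 (SE 0.44), Pax6 by 7.40 (SE 0.56), Rfx6 by 5.53 (SE 0.76), Fev by 3.73 (SE 0.50) and Nkx2-2 by 3.55 (SE 0.47) on the log2 scale, with adjusted p from 5.82e-08 to 2.21e-05 in edgeR's test. Etv1 had 393 counts against 3, a ratio of 156 (95% counting interval 53.1 to 761; edgeR's adjusted p = 1.59e-06). Mnx1 fell by 1.97 here too (SE 0.36; edgeR's adjusted p = 0.000294). The median log2 difference of the 7 genes was 3.94 in Bmi1-GFP and 5.53 in enteroendocrine cells, against 0.09 and 0.04 over all genes tested.

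Markers of other cells moved with these results. The 8 immune markers summed to 394 to 937 CPM in Bmi1-GFP libraries, 267 to 360 CPM in enteroendocrine libraries and 34.6 to 65.0 CPM in Lgr5-GFP-Cre libraries, with Cd8a at 0 in the enteroendocrine sort. The 8 tuft markers summed to 221 to 558 CPM in Bmi1-GFP and 21.5 to 31.5 CPM in Lgr5-GFP-Cre libraries. Their part in the levels of the 7 genes was not tested. Isl1, Etv1 and other genes of the list are also used in neurons, and the 10 enteric neuron and glia markers summed to 13.8 to 33.9 CPM in Bmi1-GFP, 22.9 to 42.1 CPM in enteroendocrine and 1.82 to 2.53 CPM in Lgr5-GFP-Cre libraries. Of these markers 4 were tested, with a list median of log2 3.20 in Bmi1-GFP and 4.53 in enteroendocrine cells. With the 1 gene of 3 counts or fewer in a group held at 3 counts there, these medians were 2.69 and 4.53. Elavl4, a neuronal RNA-binding protein gene, had 51 counts in Bmi1-GFP and 168 in enteroendocrine libraries against 0 in Lgr5-GFP-Cre libraries, while the defining markers Hand2 and Sox10 were at 0 in all libraries of these 3 groups. Ret, which endocrine cells can also express, had a mean of 21.5 CPM in Bmi1-GFP and 21.7 CPM in enteroendocrine libraries. The 8 stromal and interstitial cell of Cajal markers, cells in which Etv1 is a known factor, summed to 5.71 to 11.6 CPM in Bmi1-GFP, 3.72 to 4.81 CPM in enteroendocrine and 0.521 to 1.63 CPM in Lgr5-GFP-Cre libraries. The 7 pancreas markers were at 0 in the enteroendocrine sort and summed to at most 1.80 CPM in Bmi1-GFP and 8.01 CPM in Lgr5-GFP-Cre libraries. The part of the neuron, stromal and pancreas markers was not tested either.

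Other genes of the endocrine program were read from lists. Of 26 other endocrine transcription factors, 24 were tested: 13 were called higher in Bmi1-GFP than in Lgr5-GFP-Cre cells and 2 lower (list median 1.46). In the enteroendocrine sort 18 were called higher than in Lgr5-GFP-Cre cells and 1 lower (list median 3.46). Over all genes the shares called higher and lower were 27.9% and 22.5% in Bmi1-GFP cells and 25.5% and 20.4% in the enteroendocrine sort. Neurod1, a helix-loop-helix factor that follows Neurog3, stood at 129 ± 39.0 CPM in Bmi1-GFP (SD, n = 3) against 3.23 ± 0.72 CPM (n = 3) in stem cells, log2 5.28 (SE 0.50; edgeR's adjusted p = 1.02e-06). Rfx3, a relative of Rfx6, was higher in the enteroendocrine sort by 2.66 (SE 0.24; edgeR's adjusted p = 5.97e-07). Sox4, a factor of early secretory precursors, was the called gene of lowest adjusted p in the lower direction in Bmi1-GFP cells (log2 -1.32, SE 0.28) and was also lower in enteroendocrine cells (log2 -0.87, SE 0.32). Foxa2 was lower in Bmi1-GFP cells (log2 -1.10, SE 0.27; edgeR's adjusted p = 0.00257). Mlxipl, a glucose-responsive factor, was called in neither comparison (adjusted p of 0.322 and 0.838 in edgeR's test).

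Relatives of the 7 genes within their own families were read the same way. Of 11 listed ETS relatives of Etv1 and Fev, 10 were tested, and 3 were called higher and 5 lower in Bmi1-GFP than in Lgr5-GFP-Cre cells (list median -0.59). Over all genes 27.9% were called higher and 22.5% lower in that comparison, and 25.5% and 20.4% in the enteroendocrine sort against Lgr5-GFP-Cre cells. Ets1, an ETS factor that lymphocytes express strongly, rose by 3.79 (SE 0.50; edgeR's adjusted p = 1.45e-05), from 3.09 CPM to 43.0 ± 12.7 CPM (SD, n = 3). Fli1, an ETS factor of blood and endothelial cells, had 0 counts in the stem cell libraries and a mean of 4.99 CPM in Bmi1-GFP cells. The epithelial factor Elf3 fell by 0.80 and Etv6 by 0.72, both called, and Etv5, a close relative of Etv1, was not called (8.20 against 10.8 CPM; edgeR's adjusted p = 0.409). In the enteroendocrine sort 4 ETS relatives were called higher and 2 lower than in stem cells (list median 0.62), among them Spib, a factor of M cells and immune cells, at 197 ± 132 CPM (SD, n = 2) against 1.64 CPM. Of 13 LIM, Nkx, Pax and Rfx relatives, 8 were tested, and 4 were called higher in Bmi1-GFP and 3 in enteroendocrine cells than in stem cells, with 0 lower. Lhx1, a LIM-homeodomain relative of Isl1, stood at 8.37 ± 5.12 CPM in Bmi1-GFP cells (SD, n = 3) against 0.643 CPM (log2 3.66, SE 0.60; edgeR's adjusted p = 0.000151). Ldb1, the partner protein of LIM factors, had means of 23.2 and 23.3 CPM in Bmi1-GFP and Lgr5-GFP-Cre cells and was not called (edgeR's adjusted p = 0.941).

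Bmi1-GFP cells were then compared with the enteroendocrine sort. Etv1 was higher in Bmi1-GFP cells, and Isl1, Pax6 and Nkx2-2 were lower. Of all genes 12.6% were called higher and 12.1% lower, against 1 and 3 of the 7. Etv1 was higher by 2.20 on the log2 scale (SE 0.53; edgeR's adjusted p = 0.00646), with 37.7 CPM in the lowest Bmi1-GFP library and 11.8 CPM in the highest enteroendocrine library. Isl1 was lower by 1.89 (log2 -1.89, SE 0.37; edgeR's adjusted p = 0.00187), Pax6 had log2 -1.49 (SE 0.42; adjusted p = 0.0155) and Nkx2-2 log2 -1.36 (SE 0.45; adjusted p = 0.0327). Rfx6 had log2 -1.60 (SE 0.65) with ranges that did not overlap, and was not called (edgeR's adjusted p = 0.0793). Fev (log2 -1.003, SE 0.46; edgeR's adjusted p = 0.117) and Mnx1 (log2 0.00, SE 0.34; edgeR's adjusted p = 0.996) were not called either, and their ranges overlapped. Markers of other cells differed as well. Paneth markers summed to 6396 to 9318 CPM in Bmi1-GFP against 46454 to 54050 CPM in enteroendocrine libraries (list median log2 -3.02), tuft markers to 221 to 558 against 856 and 4310 CPM (-2.83), goblet markers to 3428 to 5253 against 13794 and 26187 CPM (-1.04) and enterocyte markers to 5477 to 16616 against 1959 and 2440 CPM (2.34). Their part in the differences of the 7 genes was not tested.

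**Figure D2:**
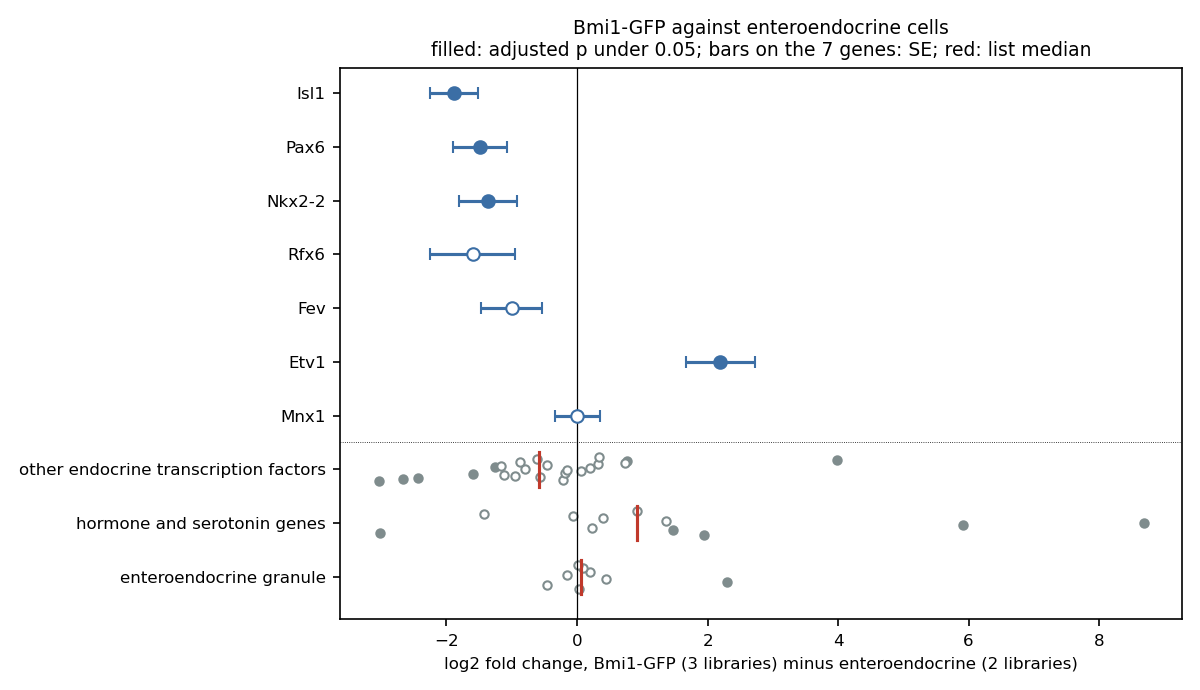
Log2 difference of Bmi1-GFP minus enteroendocrine cells for the 7 genes, with bars of 1 SE, beside the genes of 3 lists (dots). Filled points are called genes. The red line is the median of all tested genes of a list. Genes with 3 counts or fewer in a group are not drawn but count in that median. Etv1 lies at 2.20, Mnx1 at 0.00 and the other 5 genes between -1.89 and -1.003, and the granule genes have a median of 0.06.

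The calls of Isl1, Pax6 and Nkx2-2 were lost without enteroendocrine replicate 1, which leaves 1 library in that group. Calls over all genes in this comparison also fell without it, in both directions, so the loss is not particular to these genes. Enteroendocrine replicate 1 held more of each of the 7 genes than replicate 2 (1.36-fold for Mnx1 to 1.92-fold for Pax6) and fewer tuft transcripts. Without that library Isl1 had log2 -1.46 (adjusted p = 0.056), Pax6 log2 -0.89 (adjusted p = 0.317) and Nkx2-2 log2 -0.80 (adjusted p = 0.397) in edgeR's test. Without replicate 2 Etv1 had log2 1.79 (edgeR's adjusted p = 0.068). The directions of these 4 genes were the same in both cases. Pax6 also lost its call without Bmi1-GFP replicate 3 (adjusted p = 0.062), and Nkx2-2 without any 1 Bmi1-GFP library, with the TruSeq libraries left out (adjusted p = 0.065) or with a replicate block (adjusted p = 0.070).

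Set against other endocrine transcripts, Etv1 and the other factors diverged in the same directions. The chromogranin genes Chga and Chgb encode granule proteins found in most enteroendocrine cells, and each gene was taken per summed Chga and Chgb count in each library. On this log2 ratio Etv1 was higher by 2.63 in Bmi1-GFP than in enteroendocrine libraries. The difference was -1.52 for Isl1, -1.23 for Rfx6, -1.04 for Pax6, -0.92 for Nkx2-2 and -0.72 for Fev, and for these 6 genes the libraries of the groups did not overlap. Mnx1 differed by 0.34 with overlapping ranges. Per count of Neurod1 the differences ran from 2.41 for Etv1 to -1.74 for Isl1. The order of the genes could not differ between these ratios, since a change of denominator shifts all genes of a library by the same amount. These ratios were not tested.

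**Figure D3:**
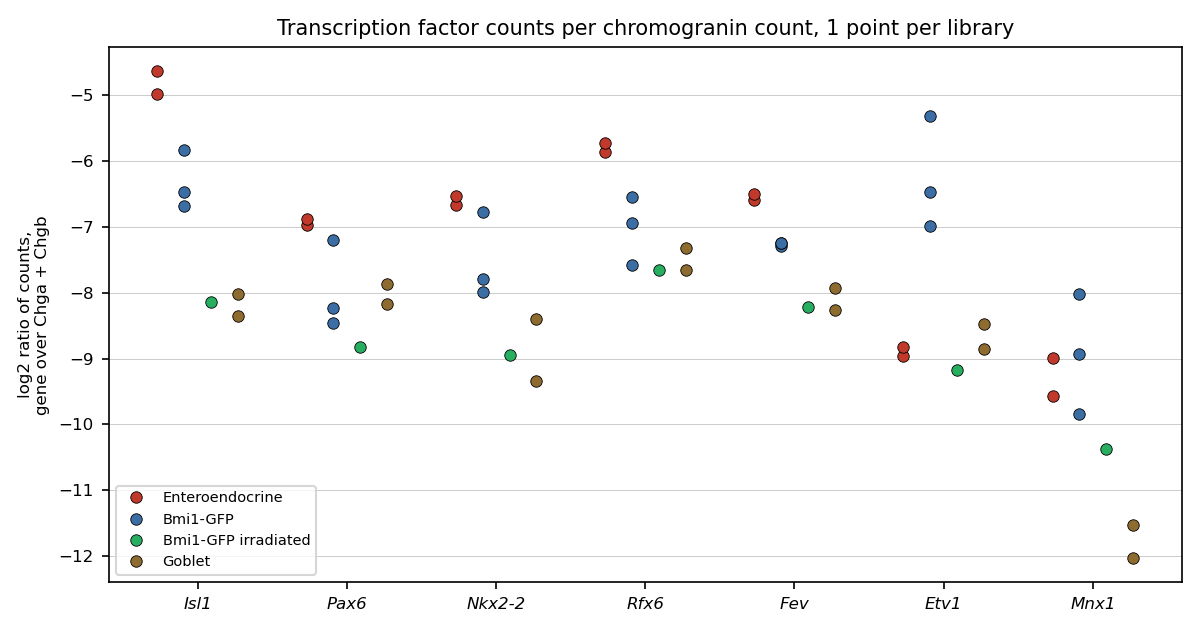
Log2 of each gene's counts per summed Chga and Chgb counts in each library of the enteroendocrine, Bmi1-GFP, irradiated Bmi1-GFP and goblet groups. Points are libraries; Bmi1-GFP lies above enteroendocrine for Etv1 (difference of means 2.63) and below it for Isl1 (-1.52).

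Among the hormone and serotonin genes (11 of 12 tested), 4 were called higher in Bmi1-GFP than in enteroendocrine cells and 1 lower (list median 0.92). Over all genes 12.6% were called higher and 12.1% lower in this comparison. Nts, the neurotensin gene, had a mean of 196 CPM against 0.469 CPM, and Cck, the cholecystokinin gene, 2246 against 546 CPM. Gip, the incretin gene of K cells, was the gene called lower, with a mean of 1525 CPM against 11670 CPM. Of the 8 granule genes Scg2 was called higher (473 against 90.8 CPM; log2 2.30, SE 0.29), and 7 were not called. Of the other endocrine transcription factors 2 were called higher and 6 lower (list median -0.59). Onecut3, a cut-homeodomain factor, stood at 18.7 ± 3.01 CPM in Bmi1-GFP (SD, n = 3) against 1.12 ± 0.53 CPM (n = 2), log2 3.98 (SE 0.88; edgeR's adjusted p = 0.00484), and Onecut2 was higher by 0.76 (SE 0.20). Neurog3, the switch of endocrine fate, stood at 6.67 ± 4.49 CPM against 52.1 ± 23.9 CPM, log2 -3.04 (SE 0.66; edgeR's adjusted p = 0.00367), and Rfx3 had log2 -1.26 (SE 0.24). Among ETS relatives 0 were called higher and 4 lower, led by the epithelial factors Ehf (log2 -1.27, SE 0.25) and Spdef (log2 -1.55, SE 0.34). Pax8, a paired-box relative of Pax6, was called higher (5.51 against 1.64 CPM; log2 1.67, SE 0.48), and Ldb1 was called lower (log2 -0.62, SE 0.21).

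Among sorted secretory cells, 6 of the 7 genes were called higher in the enteroendocrine sort than in Paneth cells, where 15.4% of all genes were. The log2 differences were 4.90 for Fev (SE 0.63), 4.73 for Pax6 (SE 0.56), 4.64 for Isl1 (SE 0.48), 4.28 for Etv1 (SE 0.69), 4.26 for Rfx6 (SE 0.84) and 3.75 for Nkx2-2 (SE 0.57), with adjusted p from 2.48e-05 to 0.00189 in edgeR's test. Mnx1 was not called (log2 0.49, SE 0.38; edgeR's adjusted p = 0.346). Against goblet cells 6 genes were called higher in the enteroendocrine sort as well, where 36.8% of all genes were, but Mnx1 was among them and Etv1 was not. Mnx1 was higher by 4.08 (SE 0.49; edgeR's adjusted p = 1.18e-06), with goblet libraries near 0.5 CPM. Isl1 was higher by 4.89, Nkx2-2 by 3.68, Rfx6 by 3.19, Fev by 3.06 and Pax6 by 2.61. Etv1 had log2 1.27 (SE 0.56; edgeR's adjusted p = 0.0539), and it was called by DESeq2 (log2 1.08, adjusted p = 0.0426) and without enteroendocrine replicate 2 (log2 1.68, edgeR's adjusted p = 0.029). DESeq2's size factors moved the median of all genes in the goblet comparison by -0.20 on the log2 scale. The goblet libraries also held Chga and Chgb at 2097 and 1624 CPM summed, against 317 and 182 CPM in Paneth libraries, so they carried endocrine transcripts.

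CD274+CD69+ cells of untreated mice held all 7 genes below every enteroendocrine and unirradiated Bmi1-GFP library. For Mnx1 the gap was small, with 5.05 CPM in the highest of these libraries and 5.17 CPM in the lowest Bmi1-GFP library. Against Lgr5-GFP-Cre cells Pax6 and Etv1 were called higher and Mnx1 and Nkx2-2 lower, where 24% of all genes were called higher and 21.3% lower. Mnx1 fell by 2.58 (SE 0.38; edgeR's adjusted p = 3.04e-05). Etv1 had 36 counts against 3, a ratio of 15.4 (95% counting interval 4.86 to 78.1; edgeR's adjusted p = 0.00158). Pax6 was higher by 1.74 (SE 0.60; edgeR's adjusted p = 0.0241) and Nkx2-2 had log2 -1.45 (SE 0.52; edgeR's adjusted p = 0.0296). The call of Pax6 was lost with a replicate block (adjusted p = 0.052), with the TruSeq libraries left out (adjusted p = 0.070) or with only the compared groups in the fit (adjusted p = 0.068), and that of Nkx2-2 with the TruSeq libraries left out (adjusted p = 0.158). Both were also lost without Lgr5-GFP-Cre replicate 1 or without either control library, and Pax6 without Lgr5-GFP-Cre replicate 2 (adjusted p between 0.057 and 0.140 over these). Isl1 (log2 -0.12), Rfx6 (log2 1.04) and Fev (log2 -0.87) were not called. Stem markers summed to 995 and 1010 CPM in control cells against 4891 to 7043 CPM in Lgr5-GFP-Cre cells, goblet markers to 8769 and 9926 against 1875 to 3765 CPM, and enterocyte markers to 11977 and 12275 against 2959 to 5101 CPM, and their part was not tested.

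Bmi1-GFP and enteroendocrine cells were each compared with these CD274+CD69+ control cells, which both comparisons share. In Bmi1-GFP cells 6 genes were called higher, where 9.72% of all genes were, with log2 differences of 5.67 for Etv1 (SE 0.65), 4.49 for Isl1 (SE 0.48), 4.17 for Pax6 (SE 0.54), 3.63 for Nkx2-2 (SE 0.55), 3.59 for Fev (SE 0.57) and 2.90 for Rfx6 (SE 0.76). Over all genes this comparison gave 1442 higher and 1371 lower, while scaling by DESeq2's size factors gave 1547 higher and 872 lower. In enteroendocrine cells 6 were called higher, where 23.8% of all genes were, with 6.39 for Isl1, 5.66 for Pax6, 4.99 for Nkx2-2, 4.59 for Fev, 4.49 for Rfx6 and 3.48 for Etv1. Mnx1 was called in neither (log2 0.61 in each; adjusted p of 0.24 and 0.195 in edgeR's test). The call of Rfx6 in Bmi1-GFP cells was lost without either CD274+CD69+ control library (adjusted p of 0.144 and 0.112) and with the TruSeq libraries left out (adjusted p = 0.168). Tuft markers summed to 11.6 and 11.7 CPM and immune markers to 67.4 and 108 CPM in the control cells, below their sums in Bmi1-GFP and enteroendocrine cells, and their part was not tested. The labels do not say whether the DT-treated mice carried a diphtheria toxin receptor allele, which mouse cells need to respond to the toxin at low doses. After DT, 0 of the 7 genes were called against the control in edgeR's or DESeq2's test, 0 had an unadjusted p under 0.05 in edgeR's test, and 0.175% of all genes were called. The lowest p was that of Nkx2-2 (log2 1.04, SE 0.55; edgeR's adjusted p = 0.88), whose ranges did not overlap.

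In unsorted crypts the genes were compared between enterocyte progenitors, where the epithelium lacks Atoh1, and the 2 kinds of secretory progenitor. Both comparisons share the enterocyte progenitors. Both Rbpj-labelled libraries were made with TruSeq and both enterocyte progenitor libraries with SMART-Seq v4, so in that comparison the kit and the genotype cannot be told apart. Isl1, Pax6, Nkx2-2, Rfx6 and Fev were called higher in DBZ crypts, 5 of 7 where 1.89% of all genes were, and the same 5 genes in Rbpj-labelled crypts, where 15.1% were. Isl1 counts were 252 in DBZ and 129 in Rbpj-labelled crypts against 2, ratios of 134 (95% counting interval 36.8 to 1115) and 76.4 (20.7 to 638). Pax6 counts were 99 and 88 against 3, ratios of 35.2 (11.7 to 173) and 34.7 (11.5 to 172). Nkx2-2 had 309 and 145 counts against 1, and Rfx6 588 and 244 against 2, so their ratios rest on 1 or 2 counts and reach 329 (58.7 to 13045) for Nkx2-2 and 313 (86.3 to 2592) for Rfx6 in DBZ crypts. Over these 4 genes edgeR's adjusted p ran from 1.75e-05 to 0.000641 in DBZ and from 1.88e-05 to 0.000576 in Rbpj-labelled crypts. Fev had fitted log2 differences of 6.09 (SE 0.80; edgeR's adjusted p = 0.000109) in DBZ and 4.25 (SE 0.84; edgeR's adjusted p = 0.000977) in Rbpj-labelled crypts.

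Etv1 and Mnx1 were called in neither comparison with enterocyte progenitors. Etv1 had log2 2.46 in DBZ crypts (SE 0.68; edgeR's adjusted p = 0.0669) and 1.58 in Rbpj-labelled crypts (SE 0.71; edgeR's adjusted p = 0.109), and DESeq2 called both (adjusted p of 0.003 and 0.033). Mnx1 had log2 -0.52 (SE 0.38) and -0.66 (SE 0.38). The call of Pax6 in DBZ crypts was lost with only the compared groups in the fit (adjusted p = 0.056). Among the other endocrine transcription factors 9 of 24 were called higher and 0 lower in DBZ crypts, and 13 higher and 1 lower in Rbpj-labelled crypts. Over all 14837 genes tested, 280 were called higher and 85 lower in DBZ crypts, and 2245 and 1934 in Rbpj-labelled crypts. Of the hormone and serotonin genes 10 of 11 and 8 of 11 were called higher, where 1.89% and 15.1% of all genes were. The 6 goblet markers moved with these genes, with sums of 34.6 and 74.5 CPM in enterocyte progenitors, 6331 and 7625 CPM in DBZ crypts and 6699 and 8698 CPM in Rbpj-labelled crypts. The 5 Paneth markers summed to 49.9 and 111 CPM in enterocyte progenitors, and to 4360 and 16139 CPM in DBZ and 8718 and 9362 CPM in Rbpj-labelled crypts. The part of these markers was not tested. Between the 2 kinds of secretory progenitor, Fev was called lower in Rbpj-labelled than in DBZ crypts (log2 -1.84, SE 0.57; edgeR's adjusted p = 0.0235), where 11.9% of all genes were called lower. Without DBZ replicate 2 it had log2 -1.11 (edgeR's adjusted p = 0.273), and without either Rbpj-labelled library adjusted p of 0.099 and 0.105. Isl1, Rfx6, Nkx2-2, Etv1, Pax6 and Mnx1 were not called, with log2 differences between -1.14 and 0.02, but without DBZ replicate 1 Nkx2-2 was (log2 -1.67; edgeR's adjusted p = 0.025). The kits differ between these groups too, and the kit and the treatment cannot be told apart.

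The Lgr5-GFP lines were compared with each other as sources of stem cells. Mnx1 was called lower in Lgr5-GFP-DTR than in Lgr5-GFP-Cre cells (log2 -1.05, SE 0.35; edgeR's adjusted p = 0.0401), where 11.1% of all genes were called lower. The call was lost without Lgr5-GFP-Cre replicate 2 (adjusted p = 0.161), without either Lgr5-GFP-DTR library (0.148 and 0.092), with the TruSeq libraries left out (0.052) or with only the compared groups in the fit (0.123). Pax6 had 0 counts against 12, with a 95% counting interval of the ratio of 0 to 0.977. It was not called (edgeR's adjusted p = 0.0636, and 0.049 without Lgr5-GFP-Cre replicate 2). Etv1 had 4 counts against 3, a ratio of 3.62 (95% counting interval 0.613 to 24.7). Isl1, Nkx2-2, Rfx6 and Fev were not called, with log2 differences between -0.10 and 0.38. Tuft markers summed to 1149 and 1548 CPM in Lgr5-GFP-DTR against 21.5 to 31.5 CPM in Lgr5-GFP-Cre cells (list median log2 5.80), Paneth markers to 149665 and 205886 against 39435 to 45812 CPM (2.10) and stem markers to 3347 and 3430 against 4891 to 7043 CPM (-0.67), and their part in the lower Mnx1 was not tested.

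The irradiated Bmi1-GFP library was below the lowest of the 3 unirradiated Bmi1-GFP libraries for each of the 7 genes, in every case by more than 1 on a log2 scale with 0.5 CPM added, where 16% of all genes were. It is a single library and was not tested, and its intervals cover counting error only. Etv1 stood at 1.73 CPM (95% counting interval 1.15 to 2.49), 21.8-fold below the lowest unirradiated library. Isl1 stood at 3.58 CPM (2.72 to 4.62), 7.41-fold below. Mnx1 stood at 0.740 CPM (0.382 to 1.29), 6.99-fold below, and Nkx2-2 at 2.03 CPM (1.40 to 2.86), 6.78-fold below. Pax6 stood at 2.22 CPM (1.55 to 3.07), Rfx6 at 4.99 CPM (3.97 to 6.21) and Fev at 3.39 CPM (2.55 to 4.41), which are 4.61-fold, 3.25-fold and 2.95-fold below. Etv1 showed the widest gap of the 7, also against the mean of the unirradiated libraries (25.5-fold), and Rfx6 was the closest to that mean (5.47-fold). Fev was 7.24-fold below the mean, since 1 unirradiated library held 10.0 CPM and the others 30.6 and 33.1 CPM. The size of these gaps depended on the scaling. With CPM by library total and no TMM the gaps to the lowest library were wider, at 38.4-fold for Etv1, 13.0-fold for Isl1 and Mnx1, 11.9-fold for Nkx2-2, 8.07-fold for Pax6, 5.68-fold for Rfx6 and 5.17-fold for Fev.

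**Figure D4:**
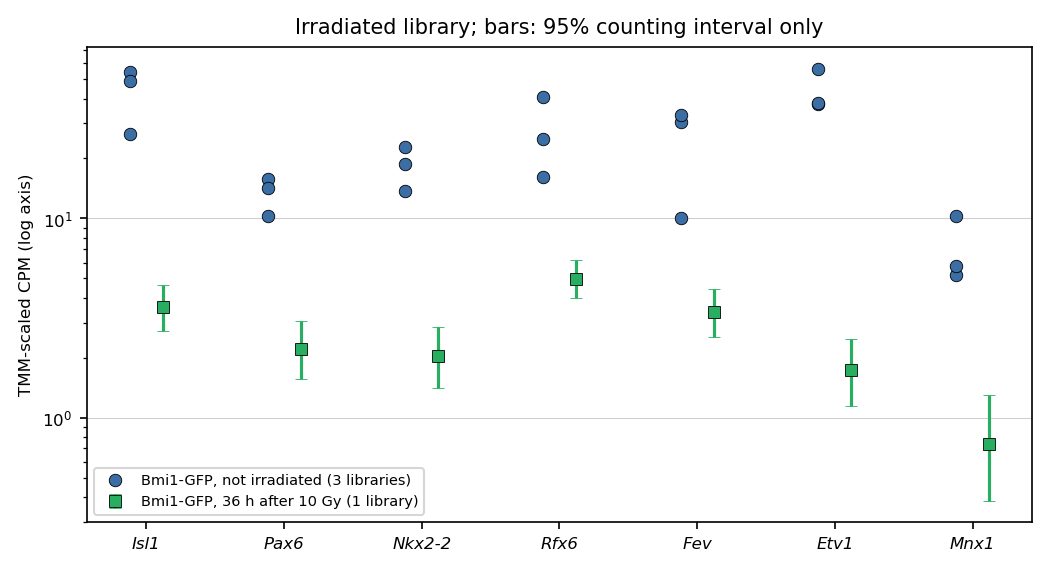
CPM of the 7 genes, on a log axis, in the 3 unirradiated Bmi1-GFP libraries and the irradiated library, with 95% counting intervals as bars. The irradiated library lies below all 3 others for each gene, at 1.73 CPM against 37.7 to 56.5 CPM for Etv1.

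Other endocrine transcripts were also lower in the irradiated library. Neurod1 stood at 30.3 CPM against a mean of 129 CPM, Chga at 326 against 1367 CPM and Chgb at 691 against 2410 CPM. Per summed Chga and Chgb, the log2 ratio of Etv1 was lower by 2.92 than the mean of the unirradiated libraries (log2 difference -2.92), and that of Isl1 by 1.81 (-1.81). Mnx1 (-1.43), Nkx2-2 (-1.42), Fev (-0.96), Pax6 (-0.85) and Rfx6 (-0.64) were lower too, each below all 3 libraries. Per Neurod1, Rfx6 differed by -0.30 and lay within their range. The 7 enterocyte markers summed to 118721 CPM in the irradiated library against 5477 to 16616 CPM, the 6 stem markers to 90.9 CPM against 796 to 1304 CPM, and the 8 immune markers to 113 CPM against 394 to 937 CPM. Their part in the lower levels of the 7 genes was not tested.

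Genes whose group means most resembled each factor were ranked by Pearson's r of mean log2 CPM over the 11 groups with 2 or more libraries, among 11249 genes. These r are descriptions over group means that share libraries, depth and mixtures of cells. Isl1 was most like Scgn (secretagogin; r = 0.99), Gip (0.97) and Ffar2 (0.97), and Scgn had means of 275 CPM in enteroendocrine and 76.0 CPM in Bmi1-GFP cells. Sphkap and Myt1 were among the genes most like Pax6 (each 0.99). Nkx2-2 was most like Gfra3 (0.98), Ffar2 (0.95) and Tac1 (0.95), Rfx6 like Vwa5b2, Insm1 and Gng4 (each 0.97), and Fev like Tac1 (0.97), Olfm1 (0.96) and Amigo2 (0.95).

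Etv1 was most like Ncam2 (r = 0.97), Pcsk1 (0.96) and Sstr5 (0.96). Ncam2, a neural cell adhesion gene, had means of 8.42 CPM in Bmi1-GFP and 3.18 CPM in enteroendocrine cells and 0 in Lgr5-GFP-Cre cells, and Sstr5, a somatostatin receptor, had 22.7, 6.36 and 0.38 CPM. Pcsk1, the convertase that cuts prohormones, had 99.5 and 82.2 CPM in the endocrine-rich groups. Mnx1 was most like Bphl (0.99), Sdsl (0.98) and Rbbp4 (0.98), none of which is on an endocrine list used here. Bphl had its highest mean in Lgr5-GFP-Cre cells (76.6 CPM) and stood at 33.1 CPM in Bmi1-GFP, 35.9 CPM in enteroendocrine and 5.37 CPM in goblet cells. Between the 7 genes themselves the highest r over these groups were 0.96 for Nkx2-2 with Fev and 0.95 for Isl1 with Nkx2-2 and for Pax6 with Rfx6, and Mnx1 had r between -0.45 and 0.06 with the others.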

How the data were processed

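The deposited table holds raw read counts per gene for 25 libraries, whole numbers with no normalization by the authors. Each column was matched to its sample by name, with 0 columns unmatched. Bowtie2, TopHat2 2.0.6 and DESeq2 are named as tools, and mm10 as the build, per the submitters' processing notes. The sources used here give no counting program, annotation or strand setting, so overlapping genes may share reads. Per the labels, libraries were 75 bp single-end, made with SMART-Seq v4 except 3 made with TruSeq (both Rbpj libraries and replicate 1 of the CD274+CD69+ control).

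In R 4.3.3, edgeR 4.0.16 was run with filterByExpr (minimum count 10, minimum total 15), TMM scaling and 1 quasi-likelihood model over 24 libraries (common dispersion 0.0714), without a replicate block; the irradiated library was left out of it. The 13 comparisons gave 91 tests of the 7 genes, adjusted over all 14837 genes. Every adjusted p is from this test unless DESeq2 1.42.0 is named. Replicates are labelled biological, with no word on shared mice, litters or days, so p-values measure the spread between these libraries, which may be technical. Genes with at most 3 counts in a group get a ratio of counts in place of a fitted fold. Ratios per Chga and Chgb add 0.5 counts to a gene and 1 to the sum. Library totals of 11179085 to 27371108 counts set the precision, and intervals cover counting error only.

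Named genes were the 7 genes, for each the 3 genes of highest correlation with 5 CPM or more in a group mean, and, from each list of relatives or endocrine genes, the 2 called genes of lowest adjusted p per direction and the most expressed gene not called. Not all of these are printed. Marker genes beside them, and genes that overlap or are used as endocrine references, were named outside that rule. The 7 genes and the lists were chosen with earlier results of these data known. Alternatives were DESeq2's size factors, DESeq2's test, no filter, a replicate block, TruSeq libraries left out, only the compared groups in the fit, and each library left out in turn. The functions were tested on simulated data. Some genes that the lists and the naming rule cover are not reported here by name.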

Additional observations from a re-analysis of the deposited data

How the results depend on the processing

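The calls of the 7 genes in Bmi1-GFP and enteroendocrine cells against Lgr5-GFP-Cre cells (6 higher and 1 lower in each) were kept in number with each library left out in turn. Of 91 values, DESeq2's size factors left 90 on their side of the threshold and in their direction, DESeq2's test 87, no filter 89 and a replicate block 88, as did TruSeq libraries left out for 70 of 77, only the compared groups in the fit for 82 of 89 and leaving out 1 library for 363 of 413. With TruSeq libraries left out the Rbpj-labelled crypts have no library, so their comparisons have no value. The cause of the changes below was not tested. Members called higher in CD274+CD69+ control against Lgr5-GFP-Cre cells went from 2 to 1 with a replicate block, with TruSeq libraries left out or with only the compared groups, and members called lower from 2 to 1 with TruSeq libraries left out. The 1 gene called lower in Lgr5-GFP-DTR against Lgr5-GFP-Cre cells went to 0 with TruSeq libraries left out or only the compared groups, as did the 1 called lower in Rbpj-labelled against DBZ crypts with only the compared groups. Leaving out 1 library gave 0 to 3 genes called lower and 0 to 1 higher in Bmi1-GFP against enteroendocrine cells, 1 to 2 in each direction in CD274+CD69+ control against Lgr5-GFP-Cre cells, 0 to 2 lower in Rbpj-labelled against DBZ crypts and 0 to 1 lower in Lgr5-GFP-DTR against Lgr5-GFP-Cre cells. A library left alone in its group is assumed to vary like the other groups.

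The labels tie no replicate number to a mouse, litter or day, so the numbers were not taken to pair libraries. In Bmi1-GFP and Lgr5-GFP-Cre cells, same-numbered libraries had correlations of deviations of -0.065, 0.007 and 0.050, and 2 of the 6 libraries correlated best with their own number. In the 12 comparisons that share only 2 numbers the correlations ran from -0.21 to 0.33, highest in enteroendocrine against Paneth cells. With the replicate block, genes called in Bmi1-GFP against Lgr5-GFP-Cre cells went from 4141 higher and 3334 lower to 4036 and 3244, Nkx2-2 lost its call against enteroendocrine cells, Pax6 lost its call in CD274+CD69+ control cells, and Fev in Lgr5-GFP-DTR against Lgr5-GFP-Cre cells changed sign to -0.052. The block changed no other call of the 7 genes.

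Values that changed sign were all of genes not called. In DT-treated against control cells, Rfx6 went from 0.00 to -0.00857 with size factors, -0.011 with DESeq2, -0.13 with TruSeq libraries left out and -0.00615 with only the compared groups, and Mnx1 to -0.059 with TruSeq libraries left out. Leaving out 1 library there gave -0.35 to 0.52 for Isl1, -0.29 to 0.24 for Rfx6, -0.47 to 0.23 for Etv1, -0.054 to 0.24 for Mnx1 and -0.062 to 0.39 for Fev. It gave -0.88 to 1.04 for Isl1, -0.35 to 0.60 for Nkx2-2, -8.19 to 0.90 for Rfx6, -3.35 to 5.09 for Etv1 and -0.11 to 0.57 for Fev in Lgr5-GFP-DTR against Lgr5-GFP-Cre cells, where single libraries hold 0 counts. It gave -0.34 to 0.30 for Pax6, -1.67 to 0.24 for Nkx2-2 and -0.45 to 0.19 for Mnx1 in Rbpj-labelled against DBZ crypts, -0.29 to 0.29 for Mnx1 in Bmi1-GFP against enteroendocrine cells, and -0.61 to 0.26 for Isl1 in CD274+CD69+ control against Lgr5-GFP-Cre cells.

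Counts over all genes moved by more than 1.5 times in several settings. DESeq2's test called 445 higher and 212 lower in DBZ crypts against enterocyte progenitors (280 and 85 in edgeR) and 41 and 85 after DT (11 and 15), and no filter gave 159 lower in DBZ crypts and 19 and 37 after DT. With TruSeq libraries left out, Bmi1-GFP against CD274+CD69+ control cells gave 264 and 191 (1442 and 1371), enteroendocrine against control cells 1837 higher (3535), control against Lgr5-GFP-Cre cells 1891 lower (3153), and DT 1 and 7. With only the compared groups the counts were 781 and 755 in enteroendocrine against Paneth cells (2288 and 2080), 378 and 104 in Lgr5-GFP-DTR against Lgr5-GFP-Cre cells (1408 and 1641), 2249 and 2240 in Bmi1-GFP against control cells, 181 and 135 in DBZ crypts, 1159 lower in Rbpj-labelled against DBZ crypts (1764) and 122 and 303 after DT. Leaving out enteroendocrine replicate 1 gave 548 and 604 in Bmi1-GFP against enteroendocrine cells (1874 and 1791), 950 and 704 against Paneth cells and 1866 lower against Lgr5-GFP-Cre cells (3026). Without CD274+CD69+ control replicate 1 or 2, Bmi1-GFP against control cells gave 308 and 448 higher (1442). Without enterocyte progenitor replicate 1 or 2, DBZ crypts gave 133 and 161 higher (280) and Rbpj-labelled crypts 1483 and 1301 (2245). Without DBZ replicate 2, Rbpj-labelled against DBZ crypts gave 905 lower (1764), and without Rbpj replicate 2, 799. Other single libraries also moved counts over all genes by more than 1.5 times. Depth limits genes near 0 counts, such as Etv1 and Pax6 in stem cells and 5 of the 7 in enterocyte progenitors, whose fold sizes are known only within wide counting intervals.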
